A study of Mus musculus with 24 samples.

Results

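In 24 mouse heart libraries, 43 of the 20961 listed genes were high in the inbred strain CAST/EiJ and low in C57BL/6J and NZO/HlLtJ. They were chosen from the measured levels: each had a mean of at least 1 CPM (counts divided by the library total, times 1e6) over the 8 CAST/EiJ libraries, and that mean was at least 8 times the higher of the means over the 8 C57BL/6J and the 8 NZO/HlLtJ libraries. Of the 12814 genes with a CAST/EiJ mean of at least 1 CPM, 98 met the ratio, which is 0.765%. Symbols of predicted genes, ribosomal and mitochondrial genes, pseudogenes and a few families were then dropped (55 genes), which left the 43. Because the strain difference chose the genes, it is given below as a description and not as a test.

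The hearts came from 12 groups of 2 libraries each, formed by CAST/EiJ, C57BL/6J and NZO/HlLtJ mice of both sexes on a diet labelled 44% or 10% fat with fiber. The labels give every animal as wild type with no other treatment. The diets, described as high fat with high sugar or as control, began at 6 weeks of age, and the hearts were taken at 15 weeks. Polyadenylated RNA was sequenced from each. The libraries of a group are numbered here as replicate 1 and replicate 2, in the order of the identifiers in their titles. Whether each library is a different animal is not stated in the labels, and the p-values below measure only how far these libraries spread.

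CAST/EiJ is a wild-derived strain of the castaneus subspecies of the house mouse, C57BL/6J is the classical laboratory strain on which the mouse reference genome is based, and NZO/HlLtJ is a laboratory strain prone to obesity and diabetes. A heart is mostly cardiomyocyte by mass, and its bulk RNA also holds transcripts of fibroblasts, vessels, nerves, blood and fat that remain attached. Many of the 43 genes are best known from other tissues: the enzyme that makes the inhibitory transmitter GABA and a subunit of the GABA receptor from brain, a taste receptor from the tongue, a guanylate cyclase from the retina, a cadherin from kidney and a prolactin relative from placenta.

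Library totals lay between 30205073 and 52254058 counts, and between 30317016 and 44446210 in CAST/EiJ, so that 1 count was worth between 0.0191 and 0.0331 CPM. The table lists only genes above 0 in at least 13 of the 24 libraries, so a gene at 0 in all 16 libraries of C57BL/6J and NZO/HlLtJ could not appear among the 43. The summed level of 8 cardiomyocyte markers was 63515 to 76581 CPM in CAST/EiJ, 60336 to 67543 CPM in C57BL/6J and 62027 to 71679 CPM in NZO/HlLtJ, and none of the marker genes checked was among the 43. The CAST/EiJ library of the male at 10% fat, replicate 1, had a summed level of 8 white adipocyte markers of 4002 CPM, against 127 to 811 CPM in the other 7 CAST/EiJ libraries. It was the highest of the 8 for 8 of the 16 marker lists, among them brown adipocyte (579 CPM, next 389 CPM), B and plasma cell (21.4 CPM, next 12.4 CPM), mesothelial (54.4 CPM, next 43.99 CPM) and Schwann cell markers (18.9 CPM, next 15.1 CPM). In bulk RNA, fewer cells of a type and less RNA per cell cannot be told apart.

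CAST/EiJ means ran from 1.09 CPM for Efcab12 to 120.4 CPM for Atp5g2 (not scaled for transcript length), with a median of 5.85 CPM, and the ratio to the higher of the other strains ran from 8.24 to 1512 with a median of 21.4. In 6 genes the ratio was over 100 (AK157302, Eno1b, Tas1r1, Myo16, Syt13 and Snph), and in 8 it was under 10. NZO/HlLtJ had the higher of the remaining means for 27 genes and C57BL/6J for 16. In 32 of the 43 genes every C57BL/6J and NZO/HlLtJ library was under 1 CPM. The lowest CAST/EiJ library was above the highest of the other 16 in 41 of the 43, and the exceptions were Hspa1a and Hephl1. The same held for 12.6% of all genes at 1 CPM or more in CAST/EiJ, and since the rule used this difference nothing is read from the count.

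**Figure D1:**
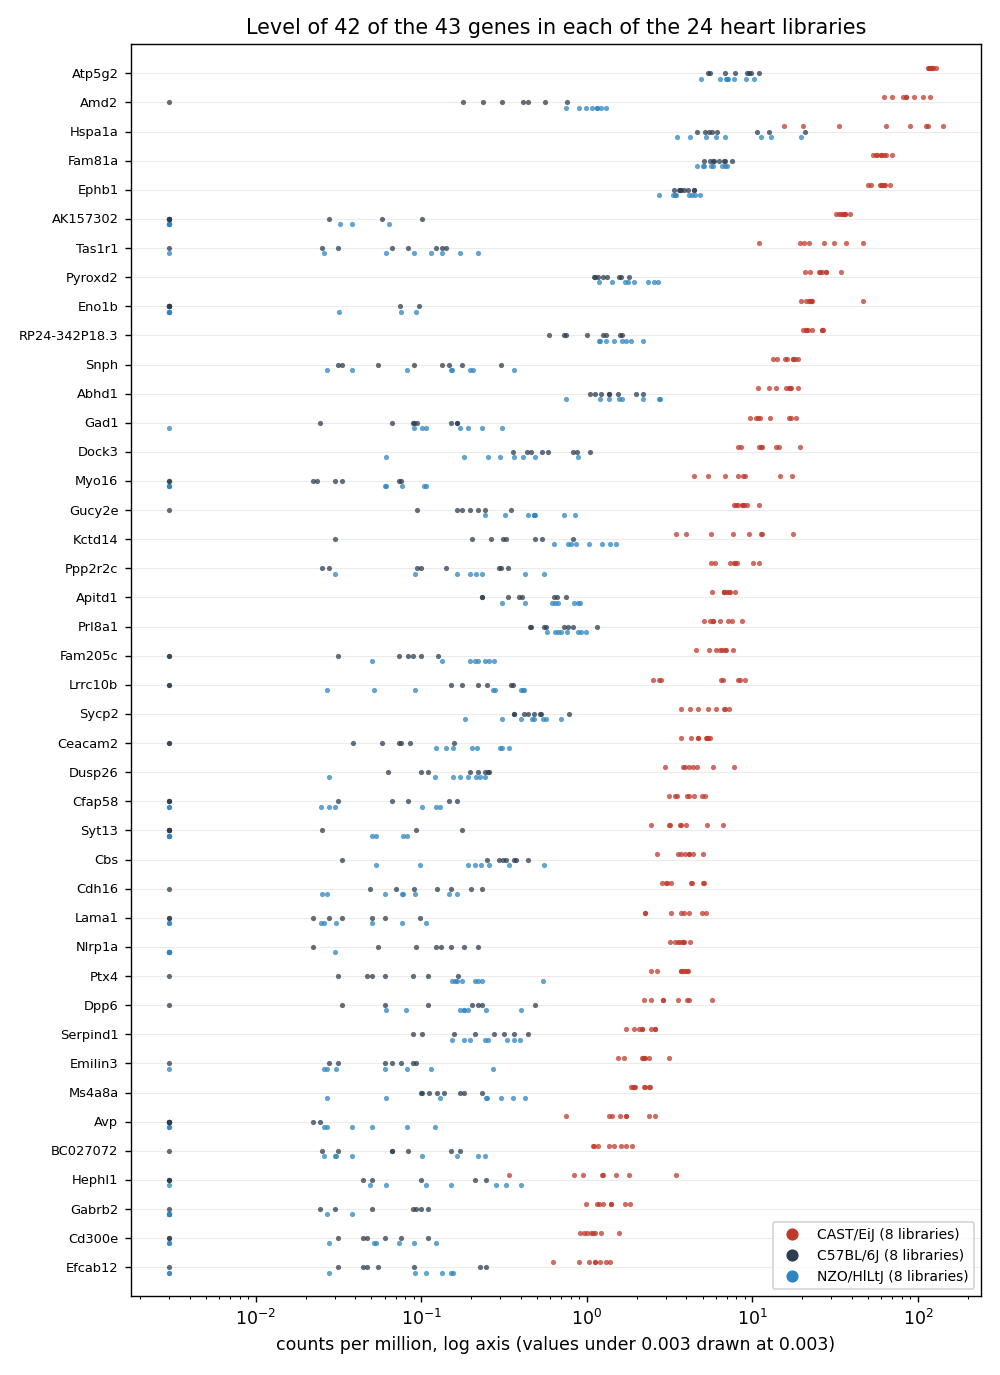
Level of 42 of the 43 genes (rows) in each library, in CPM on a log axis, with CAST/EiJ in red above C57BL/6J in black and NZO/HlLtJ in blue. The red points lie right of all others in every row except Hspa1a and Hephl1, and Hspa1a, Hephl1 and Kctd14 have the widest spread of red points.

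The gene with the largest ratio was AK157302 (ENSMUSG00000078139, chr13:21495223-21497146), a single-exon gene whose coding sequence is nearly that of Isca1, which encodes a mitochondrial iron-sulfur cluster assembly protein and has several exons elsewhere on the same chromosome. The start of both coding sequences, from the GENCODE M21 transcripts of GRCm38, is printed because it shows how little separates the gene from its copy. The stretch is the first coding exon of Isca1, chr13:59769624-59769704 on the minus strand, and the matching 81 bases of AK157302, chr13:21495306-21495386 on the plus strand. Capitals mark the 2 bases at which they differ. Over the whole 387 bases of coding sequence there was no other difference, an identity of 99.5%.
AK157302: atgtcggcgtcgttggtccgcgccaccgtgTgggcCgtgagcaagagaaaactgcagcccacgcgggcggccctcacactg
Isca1: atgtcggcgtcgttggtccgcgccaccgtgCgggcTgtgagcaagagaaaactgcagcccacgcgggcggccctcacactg
AK157302 measured 32.1 and 36.4 CPM in CAST/EiJ females at 44% fat, 35.7 and 33.3 CPM in females at 10% fat, 34.6 and 35.3 CPM in males at 44% fat, and 36.4 and 38.7 CPM in males at 10% fat. Its level was 0 to 0.101 CPM in C57BL/6J (median 0) and 0 to 0.0635 CPM in NZO/HlLtJ (median 0), which rested on 8 counts over all C57BL/6J libraries and 5 over all NZO/HlLtJ libraries. The CAST/EiJ libraries were close together (coefficient of variation 5.78%), far above every other library. Isca1 itself averaged 131 ± 5.28 CPM in CAST/EiJ, against 239 ± 6.63 CPM in C57BL/6J and 253 ± 13.9 CPM in NZO/HlLtJ (SD, n = 8 libraries each). It was lower in CAST/EiJ than in the mean of the others by a log2 difference of -0.96 (edgeR quasi-likelihood test over all genes, adjusted p = 1.19e-13). If reads of the 2 genes were divided between them, this p-value is no independent test.

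The 43 included genes of GABA signalling, peptide signalling and nerve cells. GABA is made from glutamate by the enzyme that Gad1 encodes, and GABA-A receptors are chloride channels built of 5 subunits, of which Gabrb2 encodes a beta subunit common in brain. Gad1 (ENSMUSG00000070880, chr2:70553072-70602014) measured 10.8 and 17.1 CPM in CAST/EiJ females at 44% fat, 9.67 and 16.7 CPM in females at 10% fat, 11.1 and 18.4 CPM in males at 44% fat, and 10.5 and 12.7 CPM in males at 10% fat. In C57BL/6J it ranged over 0.0245 to 0.165 CPM (median 0.0922) and in NZO/HlLtJ over 0 to 0.306 CPM (median 0.14). The lowest CAST/EiJ library stood far above the highest library of either other strain. Gabrb2 (ENSMUSG00000007653, chr11:42419757-42629028) measured 1.18 and 1.4 CPM in CAST/EiJ females at 44% fat, 0.99 and 1.69 CPM in females at 10% fat, 1.41 and 1.15 CPM in males at 44% fat, and 1.83 and 1.25 CPM in males at 10% fat. The C57BL/6J libraries held 0 to 0.11 CPM (median 0.0694) and the NZO/HlLtJ libraries 0 to 0.0383 CPM (median 0). All 8 CAST/EiJ libraries were above all 16 others for both genes, and in NZO/HlLtJ Gabrb2 rested on 3 counts over the 8 libraries. Per kilobase of annotated exon the levels in CAST/EiJ were 1.75 CPM for Gad1 and 0.214 CPM for Gabrb2.

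Promoter windows of both genes are printed because each holds the letters TATAAA, the core of a TATA box (searched on both strands, capitals below). The windows run from 250 bases before to 50 bases after a RefSeq transcript start on GRCm38.p6, with chr2:70561879-70562178 (plus strand) for Gad1 and chr11:42420190-42420489 (plus strand) for Gabrb2. In Gad1 the letters lie 141 bases before the start and read on the opposite strand. In Gabrb2 they lie 30 bases before the start. Both windows belong to a start inside the listed gene.
Gad1: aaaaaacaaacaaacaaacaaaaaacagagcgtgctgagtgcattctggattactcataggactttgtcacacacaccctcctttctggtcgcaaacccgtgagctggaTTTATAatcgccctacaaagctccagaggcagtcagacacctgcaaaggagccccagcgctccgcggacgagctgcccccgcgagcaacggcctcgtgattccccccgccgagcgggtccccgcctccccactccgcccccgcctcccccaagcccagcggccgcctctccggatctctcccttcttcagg
Gabrb2: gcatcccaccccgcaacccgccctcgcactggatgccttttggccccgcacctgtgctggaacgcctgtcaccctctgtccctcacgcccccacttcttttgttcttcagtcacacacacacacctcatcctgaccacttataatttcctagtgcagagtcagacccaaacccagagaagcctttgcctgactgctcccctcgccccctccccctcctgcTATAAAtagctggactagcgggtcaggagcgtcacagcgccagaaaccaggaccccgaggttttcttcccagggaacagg
A window at the gene's own position was found for 31 of the 43 genes. TATAAA was present in 4 of the 31 (12.9%), against 15.7% of the 27025 genes in the RefSeq table, so the share was not above that of all genes. The median GC content was 57.3% over the 35 windows of the 43 genes and 52.7% over all 32851 windows, and the median number of CG pairs per window was 10 against 7.

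Further genes of nerve cells stood above Gabrb2 per kilobase of exon, with 8.49 CPM for Ephb1, 2.1 CPM for Snph, 1.18 CPM for Myo16 and 0.852 CPM for Dock3 in CAST/EiJ. Ephb1 (ENSMUSG00000032537, chr9:101922128-102354693), a receptor tyrosine kinase for ephrin-B ligands that guides axons and vessels, measured 52.5 and 50.1 CPM in CAST/EiJ females at 44% fat, 67.7 and 62.7 CPM in females at 10% fat, 59.3 and 59.6 CPM in males at 44% fat, and 60.6 and 63 CPM in males at 10% fat. Values were 3.37 to 4.47 CPM in C57BL/6J (median 3.81) and 2.73 to 4.8 CPM in NZO/HlLtJ (median 3.81). Ephb1 was thus detected in every library of every strain, with a gap between CAST/EiJ and the rest. Snph (ENSMUSG00000027457, chr2:151590549-151632593), syntaphilin, which docks mitochondria on axonal microtubules, measured 14.1 and 18.2 CPM in CAST/EiJ females at 44% fat, 16.2 and 13.4 CPM in females at 10% fat, 17.6 and 15.8 CPM in males at 44% fat, and 17.6 and 18.8 CPM in males at 10% fat. For comparison, C57BL/6J had 0.0313 to 0.304 CPM (median 0.112) and NZO/HlLtJ had 0.0268 to 0.362 CPM (median 0.152). Dock3 (ENSMUSG00000039716, chr9:106892825-107231909), an exchange factor that activates the GTPase Rac in neurons, measured 13.9 and 11 CPM in CAST/EiJ females at 44% fat, 11.4 and 19.5 CPM in females at 10% fat, 11.3 and 14.5 CPM in males at 44% fat, and 8.21 and 8.59 CPM in males at 10% fat. C57BL/6J had 0.358 to 1.04 CPM (median 0.556) and NZO/HlLtJ had 0.0611 to 0.889 CPM (median 0.33). Snph was close to 0 in the other strains, and Dock3 stayed near or under 1 CPM there. Myo16 (ENSMUSG00000039057, chr8:10153911-10634742), an unconventional myosin of brain, measured 5.42 and 9.01 CPM in CAST/EiJ females at 44% fat, 17.3 and 4.45 CPM in females at 10% fat, 8.82 and 6.88 CPM in males at 44% fat, and 14.6 and 8.21 CPM in males at 10% fat. Its level was 0 to 0.0755 CPM in C57BL/6J (median 0.0268) and 0 to 0.107 CPM in NZO/HlLtJ (median 0.0607). Ephb1 and Snph were even across the CAST/EiJ libraries (coefficients of variation 9.59% and 11.8%), whereas Dock3 and Myo16 varied more (29.5% and 47.5%). Syt13, an atypical synaptotagmin, was at 2.43 to 6.66 CPM in CAST/EiJ (median 3.68), and Dpp6, an auxiliary subunit of Kv4 potassium channels, at 2.21 to 5.68 CPM in CAST/EiJ (median 3.23). Avp, the vasopressin precursor, was at 0.746 to 2.58 CPM in CAST/EiJ (median 1.65). The highest library of the other strains was 0.177 CPM for Syt13, 0.489 CPM for Dpp6 and 0.121 CPM for Avp. Avp shared 5.86% of its 100-base words with Oxt. The summed level of 6 Schwann cell markers was 10.7 to 18.9 CPM in CAST/EiJ, 10.2 to 16.3 CPM in C57BL/6J and 15.7 to 22.5 CPM in NZO/HlLtJ, ranges that overlap.

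Among enzymes and their copies, Atp5g2 had the highest CAST/EiJ level per kilobase of exon, at 71.9 CPM. Atp5g2 (ENSMUSG00000062683, chr15:102662864-102672352) encodes subunit c of the mitochondrial ATP synthase, the ring through which protons turn the enzyme. It measured 117 and 117 CPM in CAST/EiJ females at 44% fat, 129 and 124 CPM in females at 10% fat, 119.5 and 121 CPM in males at 44% fat, and 121 and 116 CPM in males at 10% fat. In C57BL/6J it ranged over 5.39 to 11 CPM (median 8.56) and in NZO/HlLtJ over 4.92 to 10.3 CPM (median 7.1), and Atp5g2 was the steadiest of the 43 genes over the CAST/EiJ libraries, with a coefficient of variation of 3.57%. Gm10175, a predicted gene that shares 34.7% of the 100-base words of Atp5g2 transcripts, ran the other way, with 0.105 ± 0.118 CPM in CAST/EiJ, 113 ± 6.79 CPM in C57BL/6J and 108 ± 4.26 CPM in NZO/HlLtJ. The sum of both genes was 120.5 ± 4.36 CPM in CAST/EiJ, 121 ± 5.40 CPM in C57BL/6J and 115 ± 3.75 CPM in NZO/HlLtJ. Those sums differed far less than either gene alone, and how the reads of the 2 genes were divided is not given in the sources used here.

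Pyroxd2 (ENSMUSG00000060224, chr19:42725858-42752775), a mitochondrial oxidoreductase, measured 27.7 and 22.2 CPM in CAST/EiJ females at 44% fat, 25.4 and 34.1 CPM in females at 10% fat, 25.8 and 27.7 CPM in males at 44% fat, and 20.8 and 26.4 CPM in males at 10% fat. The C57BL/6J libraries held 1.1 to 1.79 CPM (median 1.29) and the NZO/HlLtJ libraries 1.19 to 2.69 CPM (median 1.85). The Pyroxd2 levels of CAST/EiJ did not overlap those of the other strains. Abhd1 (ENSMUSG00000006638, chr5:30950066-30955091), an alpha/beta hydrolase, measured 18.7 and 16.6 CPM in CAST/EiJ females at 44% fat, 16 and 12.6 CPM in females at 10% fat, 17.1 and 16.8 CPM in males at 44% fat, and 13.8 and 10.8 CPM in males at 10% fat. Values were 1.05 to 2.2 CPM in C57BL/6J (median 1.36) and 0.749 to 2.77 CPM in NZO/HlLtJ (median 1.6). Both were present in the other strains at 1 to 2 CPM on average, and Abhd1 overlaps Preb, which averaged 41.6 ± 1.17 CPM in CAST/EiJ, 42.5 ± 2.29 CPM in C57BL/6J and 43.04 ± 4.84 CPM in NZO/HlLtJ. Gucy2e, the guanylate cyclase of photoreceptors, was at 7.69 to 11 CPM in CAST/EiJ (median 8.76), with no other library above 0.852 CPM. Cbs, cystathionine beta-synthase of the transsulfuration pathway, was at 2.67 to 5.03 CPM in CAST/EiJ (median 4.03), with no other library above 0.554 CPM. Ppp2r2c, a brain regulatory subunit of protein phosphatase 2A, was at 5.62 to 11 CPM in CAST/EiJ (median 7.83), with no other library above 0.554 CPM. Dusp26 (ENSMUSG00000039661, chr8:31089471-31097047), a dual-specificity phosphatase, measured 5.77 and 4.37 CPM in CAST/EiJ females at 44% fat, 4.63 and 7.73 CPM in females at 10% fat, 4.15 and 3.9 CPM in males at 44% fat, and 2.97 and 3.83 CPM in males at 10% fat. For comparison, C57BL/6J had 0.0626 to 0.257 CPM (median 0.209) and NZO/HlLtJ had 0.0275 to 0.241 CPM (median 0.182). The CAST/EiJ females were all above the males for Dusp26, and all 8 were above the other strains. Hephl1 (ENSMUSG00000031936, chr9:15051841-15112108), a copper ferroxidase related to hephaestin, measured 0.838 and 0.946 CPM in CAST/EiJ females at 44% fat, 0.338 and 1.81 CPM in females at 10% fat, 1.51 and 1.23 CPM in males at 44% fat, and 3.45 and 1.25 CPM in males at 10% fat. C57BL/6J had 0 to 0.244 CPM (median 0.0473) and NZO/HlLtJ had 0 to 0.403 CPM (median 0.129). Hephl1 is 1 of the 2 genes whose groups overlapped: its lowest CAST/EiJ library was under its highest NZO/HlLtJ library, and its highest CAST/EiJ library was the male at 10% fat, replicate 1. Without that library Hephl1 no longer met the ratio.

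Amd2 (ENSMUSG00000063953, chr10:35708691-35711891) and Eno1b are copies of genes for a polyamine-synthesis decarboxylase (Amd1) and a glycolytic enolase (Eno1). Amd2 measured 69.9 and 84.5 CPM in CAST/EiJ females at 44% fat, 81.4 and 118 CPM in females at 10% fat, 85.2 and 107 CPM in males at 44% fat, and 62 and 94.9 CPM in males at 10% fat. Its level was 0 to 0.762 CPM in C57BL/6J (median 0.36) and 0.748 to 1.3 CPM in NZO/HlLtJ (median 1.11). Its coding sequence differed from that of Amd1 at 1 of 1002 bases. Eno1b measured 21.2 and 22.4 CPM in CAST/EiJ females at 44% fat, 19.8 and 22.6 CPM in females at 10% fat, 22.9 and 21.9 CPM in males at 44% fat, and 46.8 and 22.7 CPM in males at 10% fat. In C57BL/6J it ranged over 0 to 0.0963 CPM (median 0) and in NZO/HlLtJ over 0 to 0.0932 CPM (median 0). Eno1b was near-constant in 7 of the 8 CAST/EiJ libraries and higher in the male at 10% fat, replicate 1, and Eno1 was highest there too, at 157 CPM. Amd1 averaged 101 ± 20.5 CPM in CAST/EiJ, 129.99 ± 19.5 CPM in C57BL/6J and 149 ± 11.7 CPM in NZO/HlLtJ. The sum of Amd2 and Amd1 was 188 ± 38.6 CPM in CAST/EiJ, 130.4 ± 19.5 CPM in C57BL/6J and 149.8 ± 11.7 CPM in NZO/HlLtJ. The sum of Eno1b and Eno1 was 111 ± 37.8 CPM in CAST/EiJ, 124 ± 7.16 CPM in C57BL/6J and 108 ± 11.5 CPM in NZO/HlLtJ.

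Hspa1a (ENSMUSG00000091971, chr17:34969190-34972156) encodes the stress-inducible heat shock protein 70, a chaperone whose gene is switched on by heat and other stress. It measured 15.5 and 115 CPM in CAST/EiJ females at 44% fat, 89.5 and 141 CPM in females at 10% fat, 112 and 33.5 CPM in males at 44% fat, and 20.2 and 63.8 CPM in males at 10% fat. The C57BL/6J libraries held 4.64 to 20.7 CPM (median 5.93) and the NZO/HlLtJ libraries 3.49 to 19.7 CPM (median 6.42). It varied more than any other of the 43 except Hephl1 (coefficient of variation 64.6%), and its 2 lowest CAST/EiJ libraries were below the highest library of the other strains. Its near-identical neighbour Hspa1b, 9952 bases away with a coding sequence that differs at 8 of 1923 bases, averaged 59.4 ± 51.1 CPM in CAST/EiJ, 8.81 ± 7.43 CPM in C57BL/6J and 5.30 ± 3.07 CPM in NZO/HlLtJ. Hspa1b was called higher in CAST/EiJ than in the mean of the others (log2 difference 3.03, SE 0.47, edgeR adjusted p = 9.998e-05). Reads of the pair could have been divided between them, and in that case this p-value is no independent test.

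The promoter window of Hspa1a, chr17:34972107-34972406 on the minus strand of GRCm38.p6, is printed because heat shock factor acts on such promoters. Capitals mark the only match to GAANNTTC (N is any base, both strands searched), a core form of the heat shock element, 104 bases before the start. A longer form, the same letters followed after any 2 bases by GAA, was searched first and matched none of the 31 genes with a window. The shorter form was chosen after that.
Hspa1a: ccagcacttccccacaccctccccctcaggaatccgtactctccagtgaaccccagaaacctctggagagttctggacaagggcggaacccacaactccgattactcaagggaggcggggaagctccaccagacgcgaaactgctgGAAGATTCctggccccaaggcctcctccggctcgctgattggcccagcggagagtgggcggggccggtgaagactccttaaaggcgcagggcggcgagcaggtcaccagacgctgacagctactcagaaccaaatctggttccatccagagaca
GAANNTTC was found in 1 of the 31 genes (3.23%), against 9.04% of all genes. The window of Hspa1b differed from that of Hspa1a at 4 of 300 bases and also held 1 match.

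Receptors and genes of immune cells formed a smaller group. Tas1r1 (ENSMUSG00000028950, chr4:152027914-152038568) encodes a subunit of the umami taste receptor, which pairs with the product of Tas1r3 to sense amino acids. It measured 20.5 and 19.5 CPM in CAST/EiJ females at 44% fat, 31.1 and 46.8 CPM in females at 10% fat, 10.9 and 22.1 CPM in males at 44% fat, and 27.1 and 36.8 CPM in males at 10% fat. Values were 0 to 0.14 CPM in C57BL/6J (median 0.0744) and 0 to 0.22 CPM in NZO/HlLtJ (median 0.103). The lowest CAST/EiJ library was far above every other library, and the CAST/EiJ values themselves had a coefficient of variation of 41.9%. Nlrp1a, a sensor that forms an inflammasome, was at 3.18 to 4.19 CPM in CAST/EiJ (median 3.72), with no other library above 0.219 CPM and a single count over all NZO/HlLtJ libraries. Its neighbour Nlrp1b went the other way, at 0.203 ± 0.124 CPM in CAST/EiJ, 0.426 ± 0.215 CPM in C57BL/6J and 0.392 ± 0.162 CPM in NZO/HlLtJ (log2 difference -1.07, SE 0.30, edgeR adjusted p = 0.00438). Ceacam2, an adhesion molecule of the immunoglobulin superfamily, was at 3.72 to 5.51 CPM in CAST/EiJ (median 4.95), with no other library above 0.341 CPM. It shares 32.9% of its 100-base words with Ceacam1, which averaged 16.8 ± 2.35 CPM in CAST/EiJ, 19.98 ± 1.59 CPM in C57BL/6J and 20.8 ± 1.92 CPM in NZO/HlLtJ. Cd300e, a myeloid receptor, was at 0.914 to 1.57 CPM in CAST/EiJ (median 1.08), and Ptx4, a pentraxin, at 2.44 to 4.07 CPM in CAST/EiJ (median 3.77). Ms4a8a (ENSMUSG00000024730, chr19:11067471-11081102), a membrane protein with 4 spans, measured 2.22 and 2.25 CPM in CAST/EiJ females at 44% fat, 1.96 and 1.84 CPM in females at 10% fat, 1.91 and 1.92 CPM in males at 44% fat, and 2.37 and 2.41 CPM in males at 10% fat. For comparison, C57BL/6J had 0.0993 to 0.234 CPM (median 0.132) and NZO/HlLtJ had 0.0268 to 0.422 CPM (median 0.247). The summed level of 8 macrophage markers was 163 to 197 CPM in CAST/EiJ, 162 to 208 CPM in C57BL/6J and 149.8 to 216 CPM in NZO/HlLtJ, with no separation of the strains. Of 9 T and NK cell markers, 7 were called lower in CAST/EiJ than in the mean of the others, where 30.9% of all genes tested were called lower. Their summed level was 0.289 to 1.44 CPM in CAST/EiJ, 1.1 to 3.04 CPM in C57BL/6J and 1.23 to 4.08 CPM in NZO/HlLtJ. Of 5 tested neutrophil and mast cell markers, 3 were called lower, with 1.96 to 4.28 CPM in CAST/EiJ, 3.08 to 6.18 CPM in C57BL/6J and 5.07 to 8.76 CPM in NZO/HlLtJ. Calls were not limited to immune cells: of 6 fibroblast markers 5 were called lower, and of 8 cardiomyocyte markers 4 were called higher and 1 lower. The part of any of these cells in the levels of the receptor genes was not tested.

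Several of the 43 encode secreted or matrix proteins. Lama1, the alpha 1 chain of laminin in basement membranes, was at 2.24 to 5.27 CPM in CAST/EiJ (median 3.78), with no other library above 0.107 CPM. Emilin3, an extracellular glycoprotein, was at 1.55 to 3.15 CPM in CAST/EiJ (median 2.2), and no other library exceeded 0.271 CPM. Prl8a1 (ENSMUSG00000019756, chr13:27573922-27582171), a placental prolactin relative, measured 5.13 and 6.34 CPM in CAST/EiJ females at 44% fat, 5.79 and 8.68 CPM in females at 10% fat, 7.16 and 7.56 CPM in males at 44% fat, and 5.82 and 5.56 CPM in males at 10% fat. C57BL/6J had 0.455 to 1.16 CPM (median 0.648) and NZO/HlLtJ had 0.573 to 0.982 CPM (median 0.728). Prl8a1 was detected in every library, with no overlap between CAST/EiJ and the rest. Serpind1 (ENSMUSG00000022766, chr16:17331371-17343575), heparin cofactor II, a thrombin inhibitor made in liver, measured 2.59 and 1.91 CPM in CAST/EiJ females at 44% fat, 2.45 and 2.15 CPM in females at 10% fat, 1.73 and 2.6 CPM in males at 44% fat, and 2.14 and 2.08 CPM in males at 10% fat. Its level was 0.0886 to 0.444 CPM in C57BL/6J (median 0.243) and 0.153 to 0.392 CPM in NZO/HlLtJ (median 0.246). The CAST/EiJ values of Serpind1 overlapped between sexes and between diets, and all lay above the other strains. Cdh16 (ENSMUSG00000031881, chr8:104614141-104624396), a cadherin of kidney epithelium, measured 3.2 and 2.86 CPM in CAST/EiJ females at 44% fat, 3.01 and 3.04 CPM in females at 10% fat, 4.25 and 4.31 CPM in males at 44% fat, and 5.04 and 5.08 CPM in males at 10% fat. In C57BL/6J it ranged over 0 to 0.232 CPM (median 0.108) and in NZO/HlLtJ over 0.0252 to 0.165 CPM (median 0.0769). In these genes all CAST/EiJ libraries were above all others, and Serpind1 and Prl8a1 had ratios just over the limit.

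Genes of cilia, meiosis and centromeres included Cfap58, a protein of cilia and flagella, at 3.13 to 5.18 CPM in CAST/EiJ (median 4.1), and Sycp2, a part of the synaptonemal complex, at 3.7 to 7.25 CPM in CAST/EiJ (median 5.74). Apitd1, listed as Cenps in GENCODE M21 and a component of the kinetochore, was at 5.74 to 7.83 CPM in CAST/EiJ (median 6.91). BC027072, a photoreceptor cilium gene, was at 1.09 to 1.87 CPM in CAST/EiJ (median 1.41), and Efcab12, an EF-hand protein, at 0.628 to 1.37 CPM in CAST/EiJ (median 1.12). No other library exceeded 0.164 CPM for Cfap58, 0.783 CPM for Sycp2, 0.907 CPM for Apitd1, 0.241 CPM for BC027072 and 0.244 CPM for Efcab12. Among less studied genes, Fam81a (ENSMUSG00000032224, chr9:70089310-70142560) measured 56.3 and 56.1 CPM in CAST/EiJ females at 44% fat, 64.2 and 53.7 CPM in females at 10% fat, 62 and 59.9 CPM in males at 44% fat, and 59.9 and 70.1 CPM in males at 10% fat. The C57BL/6J libraries held 5.07 to 7.58 CPM (median 6.09) and the NZO/HlLtJ libraries 4.65 to 7 CPM (median 5.71). Fam81a was detected in every library, and the CAST/EiJ libraries lay apart from the rest. RP24-342P18.3 (ENSMUSG00000109486, chr7:131256693-131306191) measured 21 and 21.1 CPM in CAST/EiJ females at 44% fat, 22.9 and 26.3 CPM in females at 10% fat, 20.2 and 26.2 CPM in males at 44% fat, and 21.7 and 26.6 CPM in males at 10% fat. Values were 0.587 to 1.64 CPM in C57BL/6J (median 1.13) and 1.18 to 2.17 CPM in NZO/HlLtJ (median 1.55). It is a clone name, and GENCODE M21 has no gene of its identifier. Kctd14 (ENSMUSG00000051727, chr7:97451323-97459557), named for a potassium channel tetramerisation domain, measured 7.61 and 17.5 CPM in CAST/EiJ females at 44% fat, 5.65 and 11.3 CPM in females at 10% fat, 9.5 and 11.4 CPM in males at 44% fat, and 3.45 and 3.99 CPM in males at 10% fat. For comparison, C57BL/6J had 0.0302 to 0.827 CPM (median 0.32) and NZO/HlLtJ had 0.634 to 1.5 CPM (median 0.943). Kctd14 was lowest in the CAST/EiJ males at 10% fat, which still stood above every library of the other strains. Lrrc10b (ENSMUSG00000090291, chr19:10455371-10457447), a leucine-rich repeat protein, measured 8.2 and 6.65 CPM in CAST/EiJ females at 44% fat, 8.41 and 8.99 CPM in females at 10% fat, 6.46 and 2.53 CPM in males at 44% fat, and 2.74 and 2.8 CPM in males at 10% fat. C57BL/6J had 0 to 0.358 CPM (median 0.199) and NZO/HlLtJ had 0.0268 to 0.418 CPM (median 0.274). Lrrc10b and Ms4a8a lie 610024 bases apart on chromosome 19. Fam205c was at 4.54 to 7.67 CPM in CAST/EiJ (median 6.47), with no other library above 0.275 CPM.

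Just inside the limit of 8 times were Hephl1 (ratio 8.24), Hspa1a (8.33), Serpind1 (8.38), Prl8a1 (8.48) and Kctd14 (8.59). Just outside were Tceal7 (7.91), Clvs1 (7.77), Map6d1 (7.75), Elovl3 (7.68) and Serpina1b (7.63). Tceal7 measured 1.13 and 1.19 CPM in CAST/EiJ females at 44% fat, 1.12 and 1.29 CPM in females at 10% fat, 1.86 and 0.529 CPM in males at 44% fat, and 0.502 and 0.858 CPM in males at 10% fat. Its level was 0 to 0.407 CPM in C57BL/6J (median 0.118) and 0.0275 to 0.268 CPM in NZO/HlLtJ (median 0.12). All CAST/EiJ libraries were above all others for Tceal7. Clvs1 measured 8.39 and 6.68 CPM in CAST/EiJ females at 44% fat, 6.51 and 8.42 CPM in females at 10% fat, 6.45 and 8.13 CPM in males at 44% fat, and 4.76 and 5.51 CPM in males at 10% fat. In C57BL/6J it ranged over 0.612 to 1.18 CPM (median 0.904) and in NZO/HlLtJ over 0.0268 to 0.591 CPM (median 0.14). Map6d1 measured 3.47 and 2.23 CPM in CAST/EiJ females at 44% fat, 3.73 and 2.21 CPM in females at 10% fat, 2.64 and 2.57 CPM in males at 44% fat, and 3.56 and 3.6 CPM in males at 10% fat. The C57BL/6J libraries held 0.272 to 0.531 CPM (median 0.371) and the NZO/HlLtJ libraries 0.0268 to 0.232 CPM (median 0.202). Clvs1 and Map6d1 had no overlap between C57BL/6J and NZO/HlLtJ, with C57BL/6J above. Elovl3 measured 0.123 and 0.135 CPM in CAST/EiJ females at 44% fat, 0.383 and 1.87 CPM in females at 10% fat, 0.101 and 0.529 CPM in males at 44% fat, and 12.3 and 0.132 CPM in males at 10% fat. Values were 0 to 0.662 CPM in C57BL/6J (median 0.204) and 0.0268 to 0.498 CPM in NZO/HlLtJ (median 0.136). The Elovl3 value of 12.3 CPM belonged to the male at 10% fat, replicate 1, and among the remaining libraries CAST/EiJ overlapped the other strains. Serpina1b measured 1.05 and 0.91 CPM in CAST/EiJ females at 44% fat, 1.39 and 1.12 CPM in females at 10% fat, 1.63 and 1.05 CPM in males at 44% fat, and 1.04 and 1.06 CPM in males at 10% fat. For comparison, C57BL/6J had 0 to 0.535 CPM (median 0.108) and NZO/HlLtJ had 0.0409 to 0.214 CPM (median 0.158). Serpina1b did not overlap between CAST/EiJ and the rest, and its counts are uncertain because near-identical Serpina1 genes could share reads with it. The rule was met within each of the 4 combinations of sex and diet by 33 of the 43, and leaving out any 1 CAST/EiJ library kept 41 to 43 of them. The genes lost that way were Hspa1a (without the male at 44% fat, replicate 1, the female at 10% fat, replicate 2, or the female at 44% fat, replicate 2), Hephl1 (without the male at 10% fat, replicate 1, or the female at 10% fat, replicate 2) and Kctd14 (without the female at 44% fat, replicate 2).

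Diet was compared within CAST/EiJ, a contrast the rule did not use. No gene among the 43 was called between the 4 libraries at 44% fat and the 4 at 10% fat (edgeR quasi-likelihood test, 12-group fit of all libraries, adjusted p under 0.05 over 17203 genes), and the background was 0% higher and 0% lower over all genes. Unadjusted p was under 0.05 for 3 of the 43 (6.98%) and for 6.61% of all genes. The median log2 fold change was -0.01 over the 43 and -0.01 over all genes tested, with 20 positive and 23 negative. The smallest p belonged to Tas1r1, with a log2 fold change of -0.95 (SE 0.25, adjusted p = 0.452). Kctd14 had 1.05 (SE 0.36, adjusted p = 0.634) and Abhd1 0.38 (SE 0.15, adjusted p = 0.665). Tas1r1 averaged 18.2 ± 4.99 CPM at 44% fat and 35.5 ± 8.57 CPM at 10% fat, and the 4 libraries of each diet did not overlap. Nor did the diets overlap for Abhd1, Dpp6, Ephb1 or Avp, and the share of all genes without such overlap was not counted. Kctd14 averaged 11.5 ± 4.31 CPM at 44% fat and 6.10 ± 3.60 CPM at 10% fat, with overlap. Between libraries of 1 sex that both had first or both had later identifiers (described below), Kctd14 was higher at 44% fat in 4 of 4 pairs and Tas1r1 lower in 4 of 4. In all, 8 of the 43 (18.6%) went 1 way in all 4 pairs, against 13.5% of genes at 1 CPM or more in CAST/EiJ. With first or later identifiers as a block in a fit of the 8 CAST/EiJ libraries, added after the values were seen, none of the 43 was called for diet and the background was 0% (edgeR adjusted p = 0.395 for Kctd14 and 0.454 for Tas1r1). In that fit unadjusted p was under 0.05 for 6 of the 43 (13.95%) and for 5.75% of all genes tested. DESeq2 called none of the 43 for diet either, with 0.169% of all genes called.

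Sex gave no call among the 43 either, where 0.0581% of all genes were called higher and 0.0291% lower in females. Unadjusted p was under 0.05 for 3 of the 43, against 8.55% of all genes. Lrrc10b had a log2 difference, female minus male, of 1.16 (SE 0.46, adjusted p = 0.512), with all females above all males. Cdh16 had -0.65 (SE 0.27, adjusted p = 0.513) and Dusp26 0.56 (SE 0.23, adjusted p = 0.521), and in each the sexes did not overlap. The share of all genes without overlap between the sexes was not counted. DESeq2 called none of the 43 for sex, against 0.349% of all genes, and the fit with first or later identifiers as a block called none, against 0.0564%. The difference of the diet effect between the sexes, and the difference of the diet effect between CAST/EiJ and C57BL/6J or NZO/HlLtJ, called none of the 43 and 0% of all genes. Unadjusted p was under 0.05 for 1 of the 43 (2.33%) in the contrast between the sexes, against 5.56% of all genes. With the block, this contrast had 5 of the 43 (11.6%) under 0.05, against 5.36% of all genes tested. In the fit of all libraries, unadjusted p was under 0.05 for 5 (11.6%) against C57BL/6J, where the share of all genes was 6.53%. It was under 0.05 for 3 (6.98%) against NZO/HlLtJ, where the share of all genes was 4.64%. On the log2 scale the median SE over the 43 was 0.75 against C57BL/6J and 0.67 against NZO/HlLtJ, and 0.26 for the diet effect in CAST/EiJ. The highest were 1567 for Avp against C57BL/6J and 2289 for Gabrb2 against NZO/HlLtJ. Values of that size, for genes near 0 in those strains, are no usable measure of spread. These SE rest on a spread per gene estimated over all 24 libraries, not over the CAST/EiJ libraries alone. For diet in CAST/EiJ they were 0.36 for Kctd14 and 0.67 for Hspa1a, against 0.18 and 0.90 in the block fit of CAST/EiJ alone. Ephb1, detected in every library, had the lowest SE in both strain contrasts, 0.16.

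**Figure D2:**
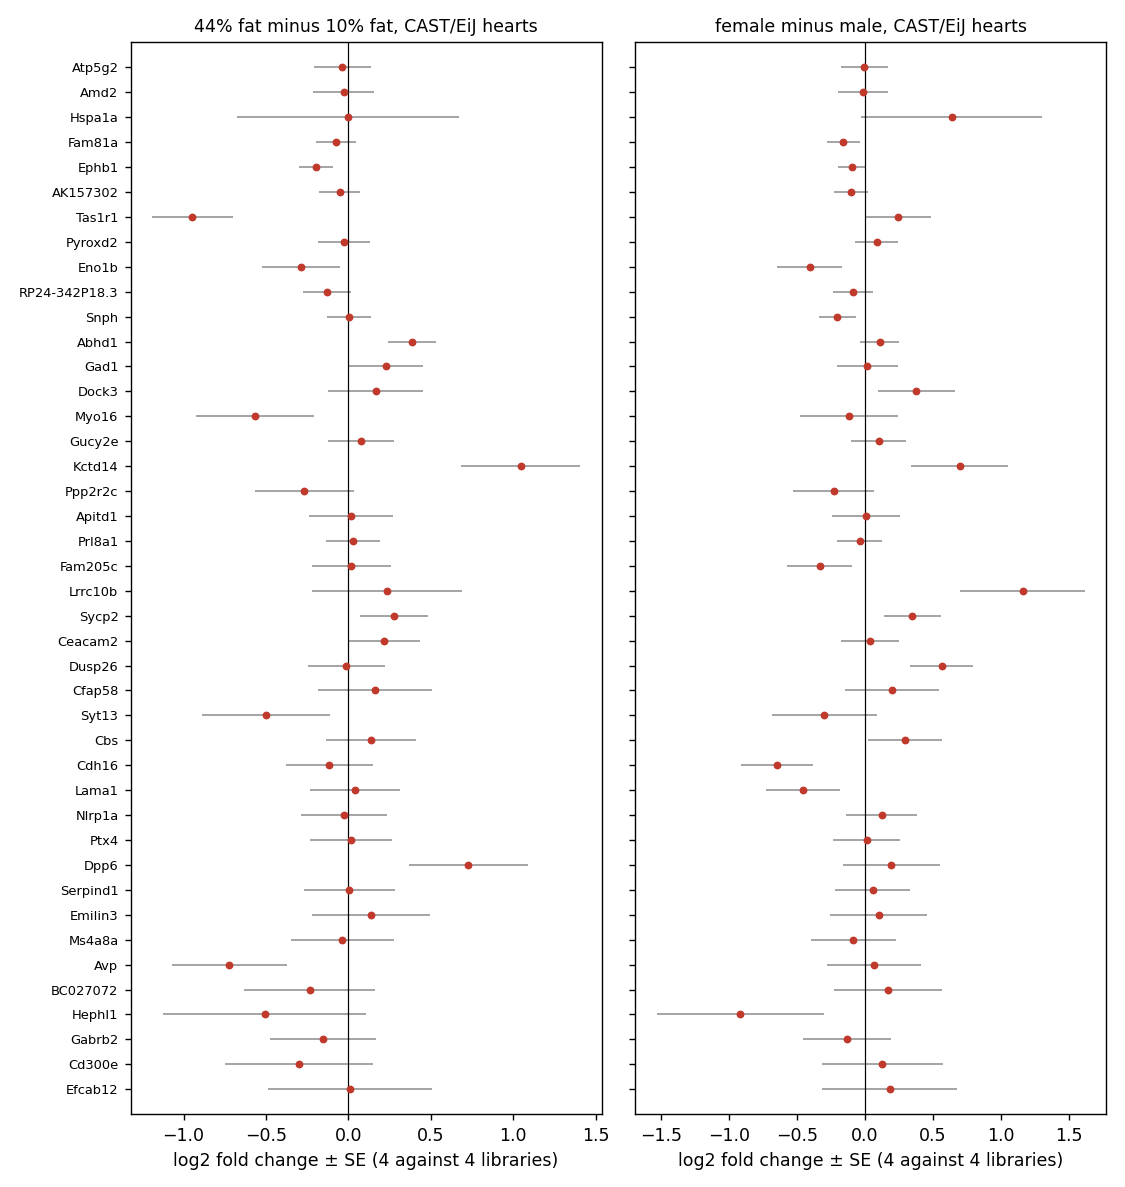
Log2 fold change with its standard error for 42 of the 43 genes within CAST/EiJ hearts, for 44% fat minus 10% fat on the left and female minus male on the right (4 against 4 libraries). The standard errors use a spread per gene estimated over all 24 libraries. No gene was called; Tas1r1, Kctd14 and Abhd1 had the smallest p for diet, and Lrrc10b, Cdh16 and Dusp26 for sex.

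The CAST/EiJ libraries of the 43 genes varied more than those of other genes, with a median coefficient of variation of 20.7% against 9.95% over all genes at 1 CPM or more in CAST/EiJ, a comparison that does not adjust for level. Library identifiers in the sample titles fall into 3 runs of numbers, and each CAST/EiJ group has 1 library in the first run and 1 in a later one. This was noticed after the values were seen, and the labels do not say what the runs stand for. C57BL/6J also has 4 libraries in the first run, whereas all NZO/HlLtJ libraries are in the later runs. Strain and run are therefore partly mixed in the contrasts between strains. With sex and diet group in the model, 2 of the 43 were called between later and first identifiers in CAST/EiJ, where 0.182% of 15946 genes were called higher and 0.0627% lower. Amd2 averaged 101 ± 14.7 CPM in the later and 74.6 ± 10.7 CPM in the first libraries (log2 difference 0.46, SE 0.06, edgeR adjusted p = 0.0430), and was higher in the later library of 4 of 4 groups. Its near-identical copy Amd1 was also higher in the later library of 4 of 4 groups. It had 103 to 131 CPM in the later and 68.4 to 108 CPM in the first libraries, and reads of the pair could have been divided between them. Gad1 averaged 16.3 ± 2.48 CPM in the later and 10.5 ± 0.624 CPM in the first libraries (log2 difference 0.64, SE 0.10, edgeR adjusted p = 0.0450), and the later libraries were all above the first. In Apitd1 the later libraries were all below the first, with 6.49 ± 0.502 CPM in the later and 7.36 ± 0.337 CPM in the first (edgeR adjusted p = 0.657). These 2 of the 43 without overlap (4.65%) compare with 6.11% of genes at 1 CPM or more in CAST/EiJ. Amd2 lost its call when 1 library of the females at 10% fat, the males at 10% fat or the males at 44% fat was left out, whichever of the pair it was (adjusted p from 0.0576 to 0.0878). Gad1 lost its call when 1 library of the females at 10% fat, the females at 44% fat or the males at 44% fat was left out (adjusted p from 0.103 to 0.142). DESeq2 called 4 of the 43 between later and first identifiers, where it called 1.75% of 15946 genes. The summed level of 6 erythroid markers was 12713 to 22244 CPM in the later and 4415 to 10788 CPM in the first CAST/EiJ libraries, and its part in these differences was not tested. The later CAST/EiJ libraries at 44% fat all belong to the third run and those at 10% fat to the second, so in the later libraries the run and the diet cannot be told apart.

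**Figure D3:**
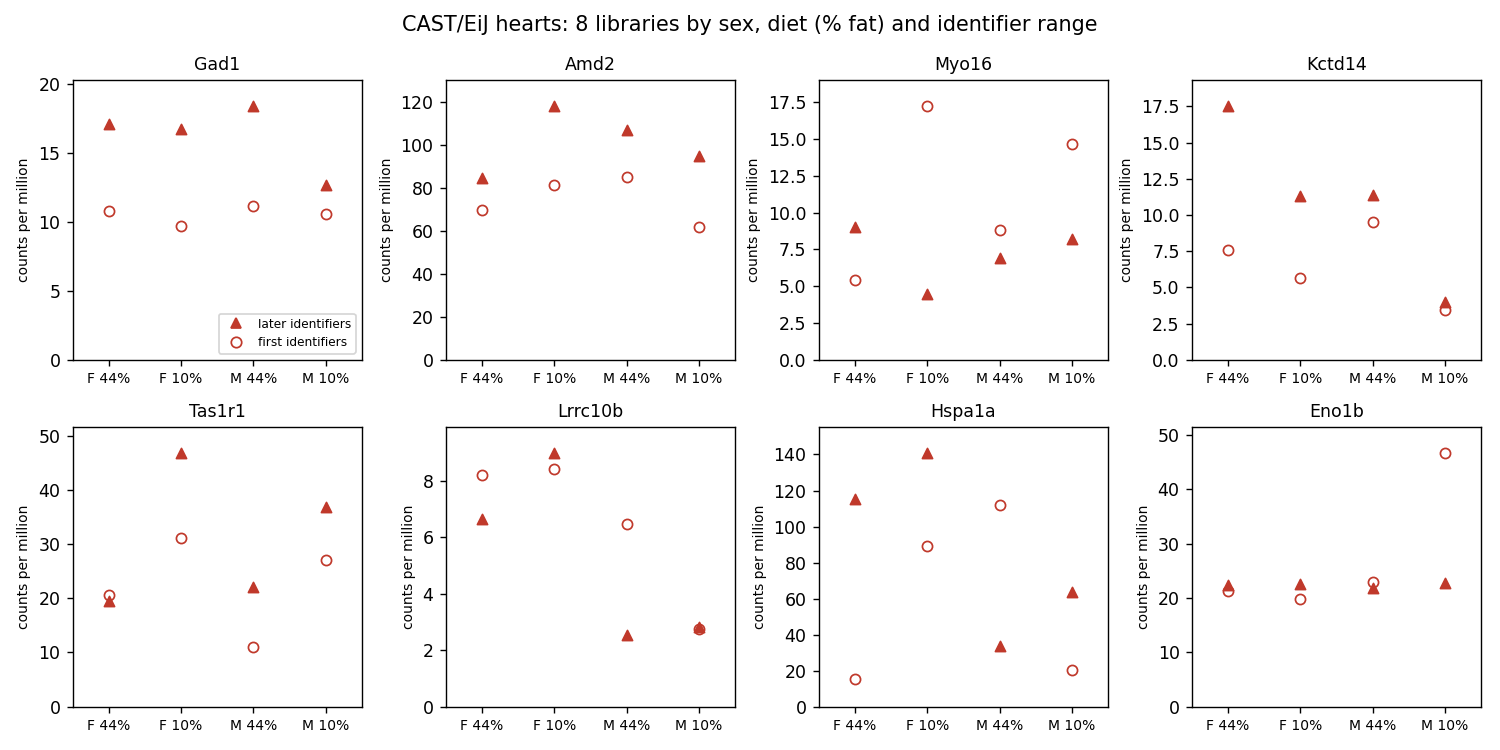
CPM in the 8 CAST/EiJ libraries for 8 of the genes, by sex (F, M) and diet (% fat), with filled triangles for later and open circles for first library identifiers. Gad1 and Amd2 are higher in the later library of every group, Tas1r1 is lower at 44% fat in both sexes, and the high point of Eno1b is the male at 10% fat, replicate 1, with 46.8 CPM.

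Sharing of sequence with other genes was measured as the share of 100-base words of a gene's GENCODE M21 transcripts that also occur in transcripts of another gene. It was over 10% for 6 of the 42 genes found in that annotation (14.3%), against 11.8% of all listed genes. The 6 are Atp5g2, Amd2, Hspa1a, AK157302, Eno1b and Ceacam2, described above with their copies. In 5 of the 6 the copy was lower in CAST/EiJ than in the mean of the other strains (log2 differences from -10.43 for Gm10175 to -0.34 for Ceacam1, each with an edgeR adjusted p under 0.05), and in Hspa1a it was higher. Over all genes tested, 30.9% were called lower. The 6 genes were chosen as high in CAST/EiJ. Where reads were divided between a gene and its copy, these p-values are no independent test. For AK157302 the sum with Isca1 was 166 ± 6.80 CPM in CAST/EiJ, 239 ± 6.63 CPM in C57BL/6J and 253 ± 13.9 CPM in NZO/HlLtJ, so the strains still differed after adding this pair. The sum with Gm11273, a neighbouring gene described below, was 35.4 ± 2.06 CPM in CAST/EiJ, 62.0 ± 4.47 CPM in C57BL/6J and 33.99 ± 6.71 CPM in NZO/HlLtJ. With Gm11273 added, the CAST/EiJ mean lay between those of the other strains. How reads were divided among these genes was not tested.

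**Figure D4:**
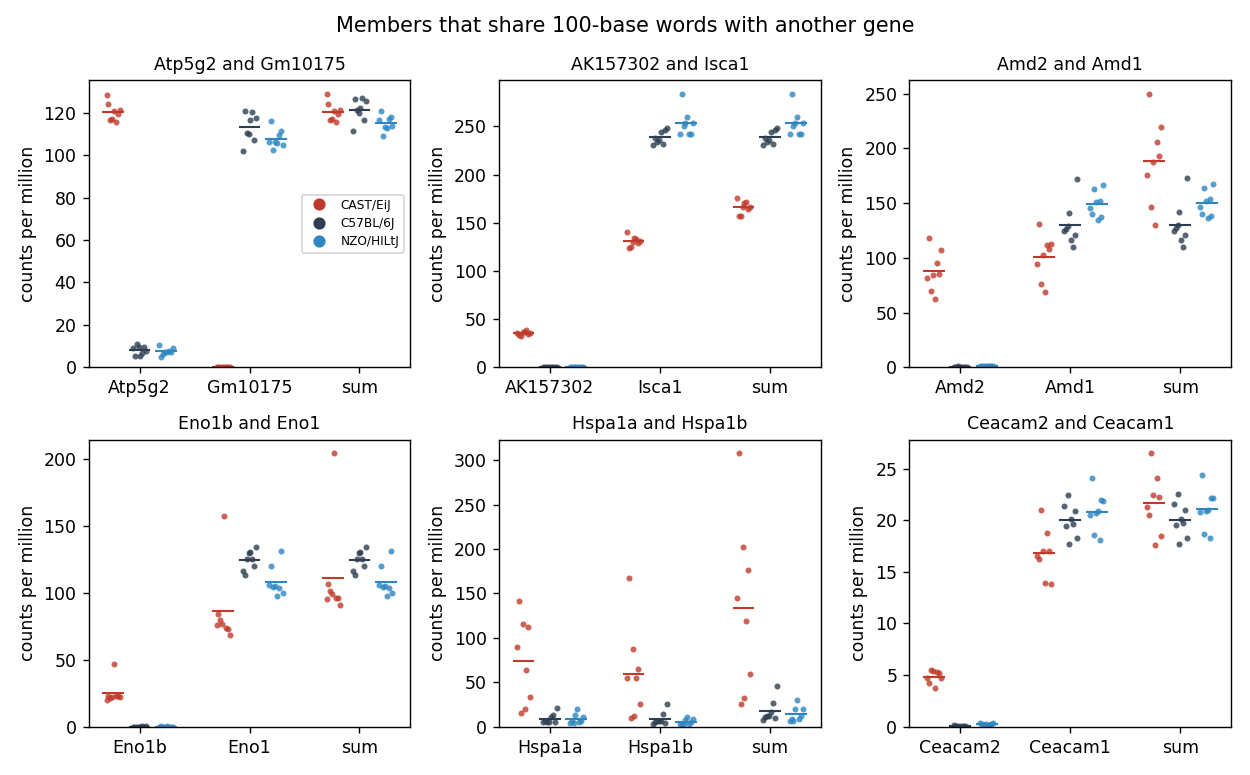
CPM per library, with means as bars, for 6 of the genes, the gene each shares most 100-base words with, and their sum, in CAST/EiJ (red, left), C57BL/6J (black) and NZO/HlLtJ (blue). For Atp5g2 and Gm10175 the sums of the strains lie close together at means of 115 to 121 CPM, and for Hspa1a and Hspa1b both genes are higher in CAST/EiJ.

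Genes next to the 43 were examined for whether the strain difference was limited to the member. Of the 61 tested genes that are nearest on either side within 100 kb, 29 were called higher in CAST/EiJ (47.5%) and 14 lower (23.0%), against 31.4% and 30.9% of all genes tested. Their median log2 difference was 0.23, against 0.00 over all genes. Only the 43 were left out of the neighbours, so genes that met the ratio but were dropped by symbol could count. The largest positive difference was that of 5430419D17Rik, 5748 bases from RP24-342P18.3 on the same strand, with 15.8 ± 2.86 CPM in CAST/EiJ, 0.648 ± 0.423 CPM in C57BL/6J and 1.14 ± 0.257 CPM in NZO/HlLtJ (log2 difference 4.20, SE 0.18, edgeR adjusted p = 1.61e-11). With these means 5430419D17Rik met the rule itself, and only its symbol kept it out of the 43, so its p-value is no independent test. On the other side of RP24-342P18.3, Cuzd1 was at 0 in all CAST/EiJ libraries, 0.577 ± 0.161 CPM in C57BL/6J and 1.23 ± 0.333 CPM in NZO/HlLtJ. Gm11273, 3883 bases from AK157302, was the most opposite, with 0.0707 ± 0.0522 CPM in CAST/EiJ, 62.0 ± 4.45 CPM in C57BL/6J and 33.97 ± 6.70 CPM in NZO/HlLtJ (log2 difference -9.78, SE 0.19, edgeR adjusted p = 6.39e-16). Next to Gucy2e, Alox8, a lipoxygenase, averaged 5.23 ± 2.08 CPM in CAST/EiJ, 0.908 ± 0.686 CPM in C57BL/6J and 0.878 ± 0.377 CPM in NZO/HlLtJ. Panx1, a channel gene next to Hephl1, averaged 3.94 ± 1.04 CPM in CAST/EiJ, 1.18 ± 0.296 CPM in C57BL/6J and 1.37 ± 0.353 CPM in NZO/HlLtJ. These genes were picked for the size of their difference, and the counts above cover all neighbours.

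Within families, taken as genes whose symbols share their letters with a member, 233 were tested. Of these, 38.6% were called higher and 27.0% lower in CAST/EiJ, against 31.4% and 30.9% of all genes tested. The families take in copies such as Amd1 and Eno1, and the genes named next were picked out of the 233. Gabra3, which encodes an alpha subunit of the GABA-A receptor, was nearly absent in CAST/EiJ, at 0.0423 ± 0.0300 CPM, against 3.83 ± 0.565 CPM in C57BL/6J and 3.93 ± 1.09 CPM in NZO/HlLtJ (log2 difference -6.46, edgeR adjusted p = 1.07e-13). Gabra3 thus ran opposite to Gabrb2, which was high in CAST/EiJ. Gucy2d averaged 0.335 CPM in CAST/EiJ, 0.0206 CPM in C57BL/6J and 0.0346 CPM in NZO/HlLtJ, and was called higher like Gucy2e (log2 difference 3.75, edgeR adjusted p = 2.90e-06). Syt12, a synaptotagmin like Syt13, averaged 14.9 CPM in CAST/EiJ, 2.12 CPM in C57BL/6J and 3.31 CPM in NZO/HlLtJ (log2 difference 2.44, edgeR adjusted p = 4.38e-14). Syt11 went the other way, with 6.25 CPM in CAST/EiJ, 15.997 CPM in C57BL/6J and 14.7 CPM in NZO/HlLtJ (log2 difference -1.34, edgeR adjusted p = 3.27e-13).

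**Figure D5:**
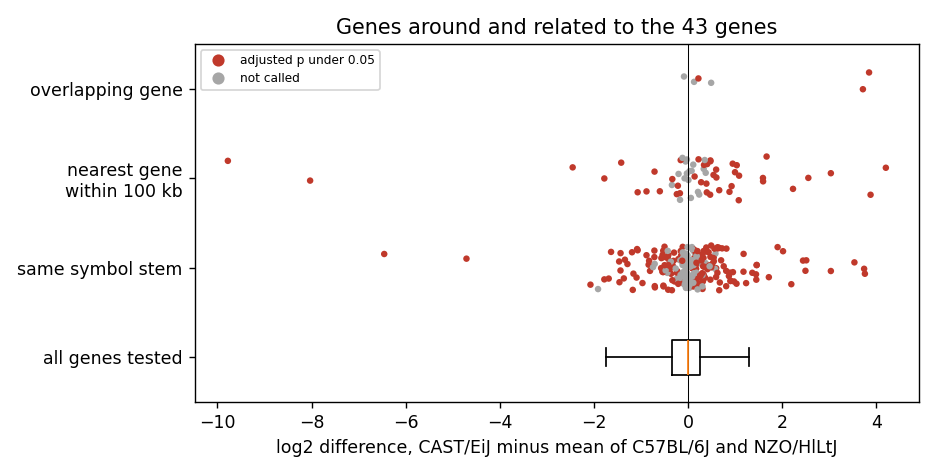
Log2 difference of CAST/EiJ minus the mean of C57BL/6J and NZO/HlLtJ for genes that overlap a member, are nearest to one within 100 kb, or share the letters of its symbol, with called genes in red, above a box for all 17203 genes tested (median, quartiles, and 5th and 95th percentiles as whiskers). The neighbours' median is 0.23 and that of all genes 0.00, and single genes of either sign lie far outside the box.

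The 43 genes were spread over the genome. Chromosome 2 held 6, chromosomes 11 and 17 held 5 each and chromosomes 9 and 19 held 4 each, while chromosomes 1, 3, 12, 14 and X held none. Another of the 43 lay within 1 Mb of 4 of them (9.30%), and 6.85% of all listed genes had one of the 43 within that distance. Of the 43, 41 are annotated as protein coding (95.3%), against 76.3% of all listed genes in the annotation, a share that the dropped symbols affect. A single exon is annotated for 4 of them (Amd2, AK157302, Lrrc10b and Hspa1a), 9.30% against 14.9%.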

How the data were processed

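What the authors deposited is a matrix of expected counts (estimated counts per gene, not scaled) for 24 heart libraries, and a gene annotation with positions in megabases. Of the counts, 19.3% were not whole (tolerance 1e-06). Their variance-stabilized table was not used here. Values of 1 of the 43 genes and of 1 related gene are not reported here, and both remain in the counts over genes. The submitters' processing notes name GRCm38 and DESeq2 and no more about either. For the aligner, the counter, strand, reads that fit several genes and the annotation release, nothing is given in the sources used here. Reads of near-identical or overlapping genes may therefore have been split differently in each strain.

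The 43 genes, the gene lists and the tests were chosen with earlier results of these data known. Levels are counts divided by the library total, times 1e6 (CPM). Totals lay between 30205073 and 52254058 counts. The count behind a value limits its precision, and a count of 0 allows up to 3 counts, or 0.0993 CPM in the smallest library, for counting error only.

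Counts were rounded and fitted in edgeR 4.0.16 (R 4.3.3): filterByExpr over the 12 groups (minimum count 10, minimum total 15) kept 17203 genes, all 43 included, and removed 3758. One quasi-likelihood model with TMM factors (0.954 to 1.06), robust estimation and a mean per group of strain, sex and diet was used for each contrast, with Benjamini-Hochberg adjustment over all genes tested. Each edgeR SE was taken as the size of the log2 fold change divided by the square root of the F statistic of its test. The comparison of library identifier ranges, and the diet and sex fits with first or later identifiers as a block, used the CAST/EiJ libraries alone and were added after the values were seen. DESeq2 1.42.0, limma 3.58.1, other filters and scalings, and leaving out each library were alternatives. The diet test was tested on simulated counts.

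Given with every CAST/EiJ library are the 15 genes of highest CAST/EiJ mean, the 3 of smallest adjusted p for diet and for sex, those just inside and outside the limit, those within 1 Mb of each other and those that fail the rule without 1 library. Nearest and overlapping genes, and genes of the same symbol letters (at least 3 letters, at most 60 genes), were taken by position and name from the listed genes outside the 43. Genes dropped by symbol were not left out of them. Copies and coding sequences came from GENCODE M21 transcripts (GRCm38) and promoter windows from RefSeq (GRCm38.p6), matched by gene identifier or symbol and position for 31 of the 43.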

Additional observations from a re-analysis of the deposited data

Results flagged for a closer look

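Among the 43 genes in 3 strains, 129 groups of 8 libraries were examined for a library far from the rest, and 7 stood out, where chance gives about 1 in 20. In each the highest library was apart.

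In CAST/EiJ, Eno1b was at 46.78 CPM in the male at 10% fat, replicate 1, with the next library at 22.9 CPM, and Hephl1 was at 3.445 CPM in the same library, with the next at 1.81 CPM. That library was also the highest of the 8 CAST/EiJ libraries for 8 of 16 marker lists, among them white adipocyte (4002 CPM), brown adipocyte (579 CPM), B and plasma cell (21.4 CPM) and mesothelial markers (54.4 CPM), and the part of these cells in its values was not tested. Cd300e was at 1.575 CPM in the CAST/EiJ female at 10% fat, replicate 1, with the next at 1.22 CPM.

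In NZO/HlLtJ, Ptx4 was at 0.5432 CPM (18 counts) and Nlrp1a at 0.03018 CPM (1 count) in the female at 10% fat, replicate 1, and Emilin3 was at 0.2706 CPM (11 counts) in the female at 44% fat, replicate 2. In C57BL/6J, Sycp2 was at 0.7828 CPM (25 counts) in the female at 10% fat, replicate 1.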

How the results depend on the processing

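The number of genes that met the rule was 43, and became 88 with a limit of 4 times, 25 with 16 times and 98 without the symbol filter. It was 42 with TMM-scaled totals (Hspa1a was lost), 59 at 0.5 CPM, 37 at 2 CPM, 50 with strain medians and 43 to 47 without any 1 CAST/EiJ library. For diet, sex, their interaction and the strain differences in the diet effect, the count of called genes among the 43 was 0 under every alternative run, including DESeq2, which called 29 genes for diet and 60 for sex over all genes, and 0 to 0 without any 1 library. For later against first identifiers the count was 2, and became 4 with DESeq2 (Tas1r1 and Kctd14 besides Amd2 and Gad1), which called 279 of 15946 genes (1.75%), 0 with limma-voom (adjusted p = 0.0649 for both) and 0 to 1 without any 1 library; the cause was not tested. The labels give no replicate numbers and name no pairs. First or later identifiers as a block, chosen after seeing the data, also gave 0 of the 43 for diet, sex and their interaction. Over all genes that fit called 0, 9 and 0 genes. Low levels in C57BL/6J and NZO/HlLtJ rest on few counts, which limits the ratios.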
